A study of Mus musculus with 48 samples.

Results

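Conventional CD4 T cells (Tcons) from mice given the 3x IL-2 mutein were compared with Tcons from mice given PBS, in 8 of the 48 RNA-seq libraries of the study, 4 of 3x and 4 of PBS. The Tcons were the CD25- cells of the spleen, collected as the flow-through when CD25+ regulatory T cells (Tregs) were bound to beads, and the libraries were chosen by their labels alone. All mice were female C57BL/6 animals of 8 to 12 weeks that had received 2 intraperitoneal doses of 500 µg of either an antibody that blocks MHC class II or its isotype control, on the day before and the day of treatment. They were then treated once, under the skin, with PBS or 25 µg of 3x, and spleens were taken on day 4. Each of the 4 groups (isotype PBS, isotype 3x, MHC II block PBS and MHC II block 3x) thus had 2 Tcon libraries, each from a separate mouse. The 3x mutein is a human IL-2 with 3 substitutions that attenuate it, carried as an Fc fusion like the wild-type (WT) IL-2 and the H16R mutein given to other mice. Because every mouse carried 1 of the antibodies, no group shows 3x in an animal without antibody. Cells in the flow-through were not sorted further, so that a fraction low in CD25 can also hold cells other than CD4 T cells.

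IL-2 acts through a receptor of an alpha chain (CD25, encoded by Il2ra), a beta chain (Il2rb) and the common gamma chain (Il2rg). Binding activates JAK1 and JAK3, which phosphorylate STAT5. STAT5 then switches on genes such as Il2ra itself and the feedback inhibitors Cish and Socs2, and represses Bcl6, the transcription factor of follicular helper T cells (Tfh). Tregs hold CD25 at rest and so respond to small amounts of IL-2, whereas resting Tcons have little CD25 and depend on the beta and gamma chains until the T cell receptor (TCR) is engaged by peptide on MHC class II.

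The 8 libraries held from 31311437 to 50176222 expected counts, with medians of 41523942 for 3x and 38814089 for PBS, and a gene at 1 CPM (counts per 1e+06 counts) had 31.31 counts or more in each. CD4 T cell genes were high throughout: Cd3e was between 214 and 310 CPM and Cd4 between 612 and 922 CPM in the 8 libraries. Markers of other cells were also present, at levels that differed between the groups. The summed level of 10 B cell genes was 1233 and 1026 CPM in isotype PBS, 397 and 522 in isotype 3x, 180 and 169 in MHC II block PBS, and 167 and 198 in MHC II block 3x. The 9 MHC class II genes summed to 3927 and 3173 CPM in isotype PBS, 1341 and 1655 in isotype 3x, 652 and 647 in block PBS, and 2210 and 2095 in block 3x. Both sums were therefore lower with 3x than with PBS in isotype mice, whereas with MHC II block the B cell sums overlapped and the MHC class II sums were higher with 3x. The 15 myeloid and dendritic cell genes, of which 11 passed the filter, followed the MHC class II genes, with 257 and 203, 81.4 and 101, 66.5 and 69.2, and 337 and 309 CPM in the same order of groups. In bulk RNA, fewer cells of a type and less RNA per cell cannot be told apart, and the part of these other cells in the results below was not tested except where a value is given.

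**Figure D1:**
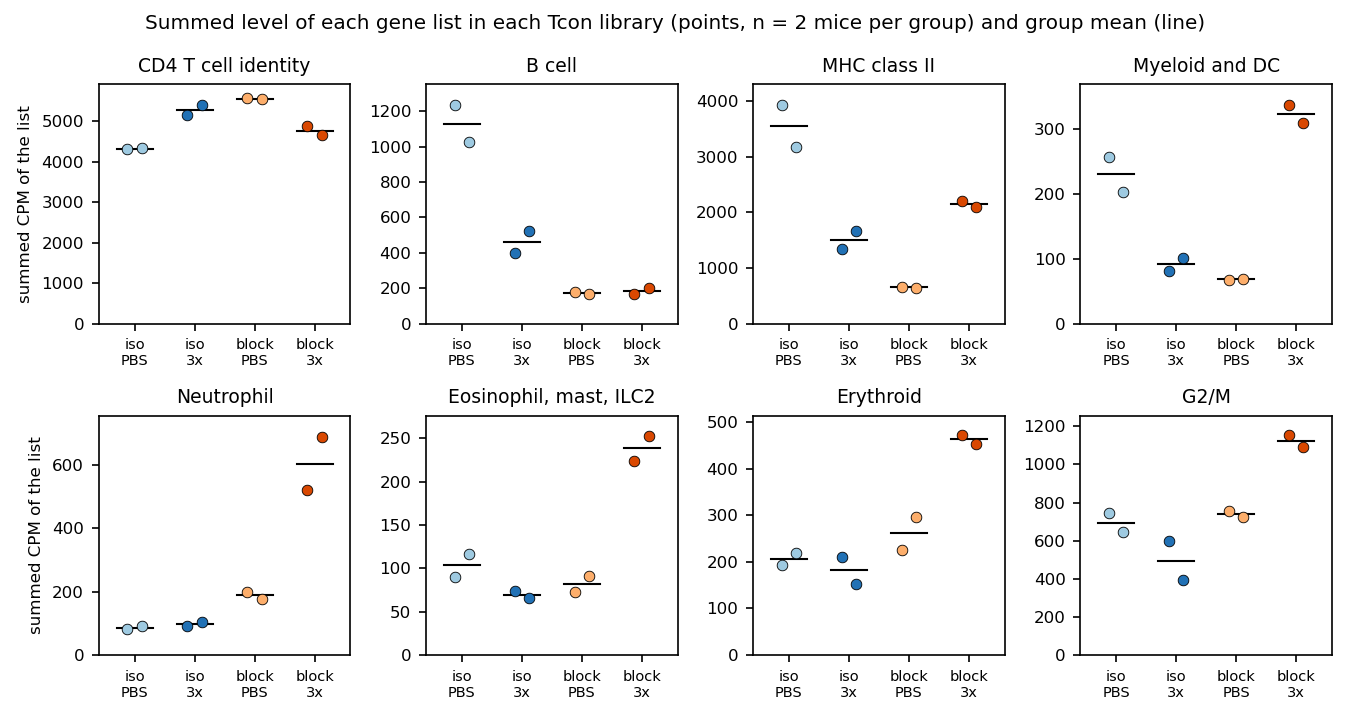
Summed CPM of marker genes in each Tcon library (points) by antibody and treatment, with the group mean as a line and n = 2 mice per group. MHC class II genes ran from 1341 to 3927 CPM in isotype mice, where 3x was lower, and from 647 to 2210 CPM in MHC II block mice, where 3x was higher.

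Across both antibody arms, 3x changed 1855 of 12229 protein-coding genes tested (15.2%), of which 651 (5.32%) rose and 1204 (9.85%) fell. With library totals alone as scaling, 1016 rose and 1084 fell. This fit of edgeR's quasi-likelihood test took the antibody as an additive term, with Benjamini-Hochberg adjustment over all tested genes and a threshold of 0.1, and all adjusted p-values below come from this test. Within the arms, 3x changed 3810 genes (31.2%) in isotype mice and 5779 genes (47.3%) in MHC II block mice. The response differed between the arms, by the interaction of drug and antibody, for 4978 genes (40.7%), of which 2522 (20.6%) had the higher effect with MHC II block and 2456 (20.1%) the lower, and 3191 of 4795 the higher with library totals alone. In isotype mice 1564 genes (12.8%) rose and 2246 (18.4%) fell, and with MHC II block 2835 (23.2%) rose and 2944 (24.1%) fell. In both arms alike, 361 genes (2.95%) rose and 681 (5.57%) fell, whereas 860 (7.03%) fell in isotype mice and rose with MHC II block and 376 (3.07%) did the reverse. Of the genes that rose in isotype mice, 23.1% also rose with MHC II block and 24% fell there, beside 23.2% and 24.1% of all genes. Of those that rose with MHC II block, 12.7% also rose in isotype mice and 30.3% fell there, beside 12.8% and 18.4% of all genes. The shares that rose in both arms were thus at the background. Of the genes that fell in isotype mice, 30.3% also fell with MHC II block and 38.3% rose there, and of those that fell with MHC II block, 23.1% also fell in isotype mice and 12.8% rose there, beside the same shares of all genes. The MHC II block 3x libraries stood apart along the first principal component, at 37.2 and 40.5 against -21.4 to -3.6 for the other 6 libraries, on an axis with 38.6% of the variance. Without MHC II block PBS replicate 1 or replicate 2, or MHC II block 3x replicate 1 or replicate 2, the 1855 genes became 681, 711, 838 and 839.

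**Figure D2:**
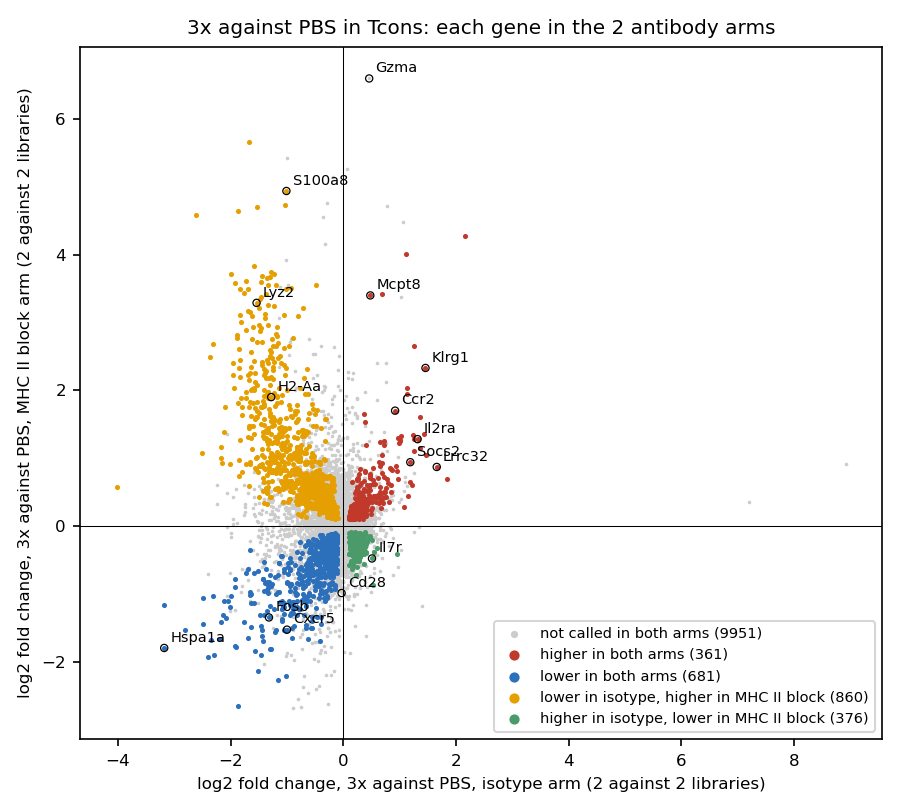
Each point is a gene, placed by its log2 fold change of 3x against PBS in isotype mice (x axis) and in MHC II block mice (y axis), 2 against 2 libraries each. Colored genes passed the threshold in both arms: 361 rose in both, 681 fell in both, 860 fell in isotype and rose with MHC II block, and 376 did the reverse.

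Among the components of the IL-2 receptor, the alpha chain moved most. Il2ra (chromosome 2, 11642807 to 11693193 of GRCm38) was at 19.7 and 19.1 CPM in isotype PBS, 50.1 and 46.6 in isotype 3x, 19.2 and 18.2 in MHC II block PBS, and 53.3 and 41.8 in MHC II block 3x. The 4 PBS libraries were close together and all 4 libraries of 3x lay above them. The mean rose from 19.0 ± 0.624 to 48.0 ± 4.9 CPM (SD, n = 4), a log2 fold change of 1.30 (SE 0.08, adjusted p = 0.000533), with 1.32 in isotype mice and 1.28 with MHC II block. The difference between the arms was -0.04 (SE 0.14, adjusted p = 0.85), but 0.53 (adjusted p = 0.00543) with counts scaled to CD4 T cell identity genes, a setting that was added once the data had been seen and that moved the median of this difference over all genes to 0.58. The beta chain Il2rb rose by 0.22 on the log2 scale (SE 0.06, adjusted p = 0.0662), from 417 to 439 CPM in the PBS libraries to 463 to 578 CPM in those of 3x, and Il2rg differed by 0.10 and did not pass. Without isotype PBS replicate 1 or replicate 2, MHC II block PBS replicate 1 or MHC II block 3x replicate 1, Il2rb no longer passed (adjusted p of 0.14, 0.138, 0.115 and 0.134). Of the 7 genes of the receptor and its JAK-STAT5 chain, 2 rose and none fell, Jak1, Jak3, Stat5a and Stat5b being within 0.10 of no change.

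Of the 22 STAT5 feedback and target genes, 5 rose, among them Socs2 and Cish, while Socs1 (-0.11) and Socs3 (0.00) did not pass. Socs2, an inhibitor of cytokine receptor signaling, was at 9.39 and 9.42 CPM in isotype PBS, 21.6 and 21.0 in isotype 3x, 8.79 and 7.52 in block PBS, and 16.7 and 16.0 in block 3x. Both arms showed the rise, without overlap of the groups (log2 fold change 1.06, SE 0.08, adjusted p = 0.00105). Cish, a further inhibitor of this family, was between 29.7 and 34.5 CPM with PBS and between 42.6 and 51.4 CPM with 3x (0.52, SE 0.07, adjusted p = 0.00672). Il4ra, the IL-4 receptor chain, went from 339 to 385 CPM with PBS to 471 to 694 CPM with 3x (0.58, SE 0.10, adjusted p = 0.0182), and the rise was larger with MHC II block by 0.41 (adjusted p = 0.0218, but 0.14 in a fit of all 16 Tcon libraries with 8 group means). Cyclin D3 (Ccnd3) rose by 0.31 and the survival gene Bcl2 by 0.34, the latter not passing without any 1 of 6 of the 8 libraries (adjusted p of up to 0.204). In this list 3 genes fell (Bcl6, the cytokine Lta and the kinase Pim1) and 14 did not pass, with a median of 0.11 beside 0 over all genes tested.

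Klrg1, Cxcr6, Ccr2, Itga1 and Fgl2 were among the 15 largest rises over both arms together, in a ranking that required the same sign in each arm. Klrg1, an inhibitory lectin receptor of effector T cells, NK cells and effector Tregs, was at 6.35 and 5.36 CPM in isotype PBS, 17.0 and 15.1 in isotype 3x, 3.35 and 2.95 in block PBS, and 16.6 and 16.4 in block 3x. The 3x libraries reached like levels in both arms from different PBS levels, and the rise (log2 fold change 1.89, SE 0.18, adjusted p = 0.00325) was larger with MHC II block by 0.86 (adjusted p = 0.00364, but 0.155 in the fit of all 16 Tcon libraries). Cxcr6, a chemokine receptor of effector and tissue T cells, was at 49.9 and 64.0 CPM in isotype PBS, 128 and 162 in isotype 3x, 66.4 and 49.6 in block PBS, and 143 and 127 in block 3x. Its groups did not overlap and its rise (1.25, SE 0.13, adjusted p = 0.00341) was about as large in each arm, with an interaction of -0.21 (SE 0.22, adjusted p = 0.515). Ccr2, which guides cells along CCL2, was at 27.5 to 37.2 CPM in the PBS libraries, 66.1 and 69.3 in isotype 3x, and 105 and 93.7 in block 3x (1.31, SE 0.15, adjusted p = 0.00488). The integrin chain Itga1, a collagen receptor, rose by 1.29 and Fgl2, a secreted fibrinogen-like protein of T cells, by 1.58.

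In the list of 16 chemokine receptors, 7 rose and 1 fell (median 0.24), with Ccr3, Ccr9, Ccr10 and the lipid receptor S1pr4 among those that rose. Ccr3 is also a receptor of eosinophils, and its rise of 1.43 rested on MHC II block mice (2.40 there, 0.59 without passing in isotype mice). Of 12 Th1 genes, 5 rose and none fell (median 0.30): Cxcr6, the chemokine Ccl5 (0.87), the IL-12 receptor chain Il12rb2 (0.96), the transcription factor Tbx21 (0.54) and Il18rap (0.35). Ifng, the main Th1 cytokine, did not pass (0.06), with 0.37 in isotype mice and -0.24 with MHC II block, the latter not passing without MHC II block PBS replicate 1 (-0.14, adjusted p = 0.153). Of 15 cytotoxic and NK genes, 8 rose and none fell (median 0.60), among them Nkg7 (0.60), Klrk1 (0.81), Klrb1c (0.72), Ctsw (0.51) and Prf1 (0.31). Many of these genes are also expressed by NK cells: Ncr1, an NK receptor, was at 13.9 and 10.3 CPM in isotype PBS, 8.53 and 8.83 in isotype 3x, 1.56 and 1.21 in block PBS, and 16.2 and 17.7 in block 3x. Ncr1 fell in isotype mice (-0.48, which did not pass without isotype PBS replicate 1 or either isotype 3x library, with adjusted p of 0.287, 0.146 and 0.124) and rose with MHC II block (3.55). The part of NK cells in the cytotoxic genes was not tested.

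A part of the Treg markers also rose in the CD25- fraction. Lrrc32 (GARP), which holds latent TGF-beta at the cell surface, was at 18.8 and 15.9 CPM in isotype PBS, 57.2 and 51.8 in isotype 3x, 20.8 and 25.5 in block PBS, and 44.0 and 45.0 in block 3x. All libraries of 3x were above those of PBS (1.26, SE 0.17, adjusted p = 0.00746), with the smaller rise under MHC II block (interaction -0.79, adjusted p = 0.00288, but 0.2 in the fit of all 16 Tcon libraries, or -0.21 and 0.254 on the scale of CD4 T cell identity genes, where the median was 0.58). Foxp3, the transcription factor that defines Tregs, was at 60.9 and 55.4 CPM in isotype PBS, 113 and 91.5 in isotype 3x, 69.5 and 78.5 in block PBS, and 101 and 98.4 in block 3x. Its groups did not overlap either, and it rose by 0.59 (SE 0.11, adjusted p = 0.0232), but did not pass in the additive fit of all 16 Tcon libraries (adjusted p = 0.237). In Tregs of the same PBS mice Foxp3 was between 755 and 898 CPM. Of 15 Treg markers, 6 rose (Il2ra, Foxp3, Lrrc32, Klrg1, Itgae and Gpr83), 1 fell (Capg) and 8 did not pass (median 0.19). Ctla4 and Ikzf2, also Treg markers, differed by -0.47 and -0.20 without passing. Whether these transcripts came from residual Tregs or from Tcons cannot be told apart in this fraction.

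Type 2 genes moved in part. Il1rl1, the IL-33 receptor ST2, was at 6.50 and 9.16 CPM in isotype PBS, 16.1 and 15.0 in isotype 3x, 8.36 and 8.39 in block PBS, and 22.2 and 19.4 in block 3x. The groups were apart in both arms (1.12, SE 0.12, adjusted p = 0.00341). Il13 rose from a trace, between 0.0483 and 0.406 CPM with PBS, to between 1.5 and 2.5 CPM with 3x (3.09, SE 0.47, adjusted p = 0.0115). It passed the filter through the 3x libraries alone, all PBS libraries being below 0.5 CPM, so its call supports nothing. Of 11 Th2 genes tested, 4 rose and none fell, Il13 included, the other two being Il4 (0.43) and Il4ra, but 2 or 3 rose without any 1 library, and Il4 passed in none of these settings (adjusted p of 0.103 to 0.139), whereas Gata3, the transcription factor of Th2 cells, did not pass (-0.01). Il13 and Il1rl1 are also expressed by innate lymphoid and mast cells. Basophil, mast cell or eosinophil genes were the largest rises that passed, among genes with a mean of at least 5 CPM and the same sign in both arms. They were Epx (3.06), Prss34 (2.85), Mcpt1 (2.68) and Mcpt8 (2.02). These rested on MHC II block mice, where Mcpt8 went from 2.35 and 1.89 to 23.3 CPM in both 3x libraries, against 1.85 and 2.30 to 2.97 and 2.80 CPM in isotype mice. The reads of Mcpt family members may be shared between near-identical genes. Of 10 listed genes of eosinophils, mast cells and innate lymphoid cells, 3 rose over both arms, beside 5.32% of all genes, and 7 did not pass. Their median was 0.61, and 0.38 to 0.91 without 1 library. In isotype mice 2 rose and 3 fell (median -0.13), beside 12.8% and 18.4% of all genes. With MHC II block 9 rose (median 1.53), beside 23.2%.

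**Figure D3:**
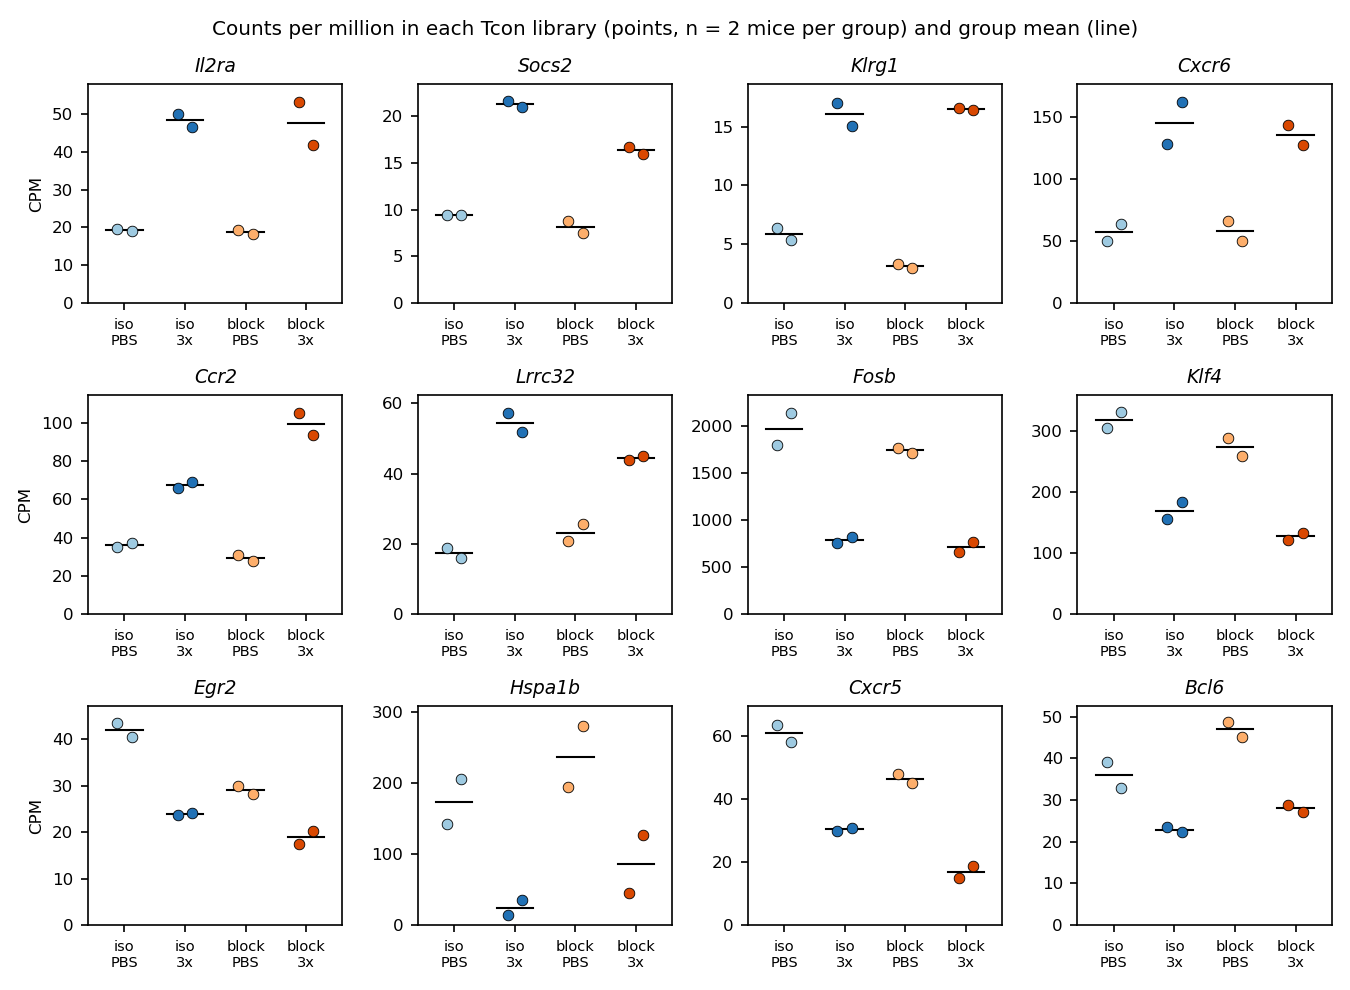
CPM of 12 genes in each Tcon library (points) and the group mean (line), n = 2 mice per group, with axes from 0. Il2ra, Socs2, Klrg1, Cxcr6, Ccr2 and Lrrc32 were higher in each of the 4 libraries of 3x than in any PBS library, and Fosb, Klf4, Egr2, Hspa1b, Cxcr5 and Bcl6 were lower.

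Immediate early genes were among the falls shared by the arms. Fosb, a subunit of the AP-1 transcription factor, was at 1796 and 2139 CPM in isotype PBS, 750 and 820 in isotype 3x, 1769 and 1715 in block PBS, and 662 and 767 in block 3x. The PBS and 3x libraries were far apart in both arms. The mean fell from 1850 ± 193 to 750 ± 65.8 CPM (SD, n = 4), a log2 fold change of -1.33 (SE 0.08, adjusted p = 0.000533), with -1.32 in isotype mice and -1.35 with MHC II block. Klf4, a factor of quiescence, was at 260 to 331 CPM with PBS and 122 to 183 CPM with 3x (-1.03, SE 0.08, adjusted p = 0.0017). Egr1 was at 599 and 640 CPM in isotype PBS, 283 and 310 in isotype 3x, 424 and 406 in block PBS, and 258 and 299 in block 3x. Egr1 was lower in PBS mice with MHC II block than in those with isotype, and still lower with 3x in each arm (-0.85, SE 0.10, adjusted p = 0.00449). Of 19 AP-1 and immediate early genes tested, 11 fell and none rose (median -0.33), including Jun (-0.39), Jund (-0.33), Fos (-0.33), Nfkbia (-0.69), Klf6 (-0.65) and Zfp36 (-0.45), while Junb (0.04) and Rgs1 (0.07) did not pass. These genes are also known to be induced by tissue dissociation, whose part here was not tested.

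Of 20 TCR response genes, which report on TCR engagement, 13 fell and none rose (median -0.55), with 7 to 14 falls without 1 library. The nuclear receptors Nr4a1, Nr4a2 and Nr4a3 fell by 0.50, 0.92 and 0.71 on the log2 scale, and Egr2 and Egr3, factors induced by calcium and MAP kinase signals, fell by 0.75 and 0.71. Nr4a1, which encodes Nur77, was at 643 and 653 CPM in isotype PBS, 428 and 461 in isotype 3x, 404 and 442 in block PBS, and 289 and 352 in block 3x. Levels in block PBS and in isotype 3x overlapped, and the block 3x libraries were lowest. The early activation marker Cd69 fell by 0.67 (SE 0.15, adjusted p = 0.0395), with -0.29 in isotype mice and -1.04 with MHC II block, and did not pass without MHC II block PBS replicate 2 (adjusted p = 0.112) or either MHC II block 3x library (0.113 and 0.118). The calcium-responsive factor Nfatc1 fell by 0.51. Myc and Icos did not pass in both arms together, each with changes of opposite sign in the arms.

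The inducible Hsp70 genes showed the largest falls among the chaperones. Hspa1a was at 119 and 165 CPM in isotype PBS, 7.89 and 22.8 in isotype 3x, 155 and 221 in block PBS, and 29.2 and 83.7 in block 3x, and its neighbor Hspa1b at 142 and 206, 14.5 and 34.6, 194 and 280, and 44.5 and 127 CPM. All 4 libraries of 3x were below all PBS libraries, but replicates within a group also differed widely, and the changes of -2.46 (SE 0.49, adjusted p = 0.0273) and -2.15 (SE 0.46, adjusted p = 0.0335) carry large errors. The coding regions of these genes are nearly the same, so that their reads may be shared. Hsph1 and Dnajb1, cochaperones of Hsp70, fell by 0.51 and 0.49, Hsp90aa1 by 0.32, and Hspa5 (BiP), the Hsp70 of the endoplasmic reticulum, by 0.43. Of the 20 chaperones, 8 fell and none rose (median -0.09), and the endoplasmic reticulum chaperones Hsp90b1 (-0.32 and 0.38), Sdf2l1 (-0.54 and 0.75), Calr (-0.21 and 0.19) and Pdia4 (-0.38 and 0.38) fell in isotype mice and rose with MHC II block. The fall of Hsp90b1 did not pass without isotype PBS replicate 1 or either isotype 3x library (adjusted p of up to 0.282), nor the rise of Calr without MHC II block 3x replicate 1 (0.101). Plasma cells are rich in such chaperones, and 6 of 8 plasma cell genes tested fell in isotype mice (median -1.03) and 2 rose with MHC II block (median 0.31), a share near the 23.2% of all genes that rose there, with 7 of 8 interactions passing (median 1.53). The 10 plasma cell genes summed to 8590 and 6896 CPM in isotype PBS, 3528 and 4256 in isotype 3x, 4325 and 8447 in block PBS, and 7081 and 10003 in block 3x, and their part in the chaperone genes was not tested. The 150 bases before the start of 3 genes that fell are given from RefSeq (GRCm38.p6) because heat shock elements are a shared feature of such promoters, with matches to GAANNTTC or TTCNNGAA, searched on both strands, in capitals. Hspa1a lies at chr17:34972157-34972306, Hspa1b at chr17:34959239-34959388 and Hsph1 at chr5:149636337-149636486, all on the minus strand. Of 2 starts listed for Hsph1, the window shown is that with most matches.
Hspa1a: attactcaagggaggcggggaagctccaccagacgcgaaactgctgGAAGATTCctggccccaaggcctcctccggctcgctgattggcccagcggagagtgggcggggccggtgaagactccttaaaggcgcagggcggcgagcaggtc
Hspa1b: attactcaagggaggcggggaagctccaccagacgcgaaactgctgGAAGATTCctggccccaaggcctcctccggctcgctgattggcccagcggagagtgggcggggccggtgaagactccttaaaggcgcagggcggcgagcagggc
Hsph1: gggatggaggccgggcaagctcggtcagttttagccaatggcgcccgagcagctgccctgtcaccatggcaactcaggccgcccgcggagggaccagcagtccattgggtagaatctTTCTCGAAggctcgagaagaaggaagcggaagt
The match lay 104 bases before the start in Hspa1a and Hspa1b, whose stretches differed at 1 position, and 33 bases before it in Hsph1. Such a match was present in 6 of the 15 chaperone genes with a promoter entry (40.0%) and in 8.91% of 27025 genes with one. A match describes the letters of the window and not a bound site.

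Genes of Tfh cells, which help B cells, fell in part. Cxcr5, the receptor that leads T cells to the B cell follicle, was at 63.7 and 58.3 CPM in isotype PBS, 30.0 and 30.8 in isotype 3x, 48.1 and 45.0 in block PBS, and 14.8 and 18.9 in block 3x. The groups did not overlap (-1.26, SE 0.13, adjusted p = 0.0033), and the fall was larger with MHC II block by 0.53 on the log2 scale (interaction -0.53, adjusted p = 0.0164, and 0.197 in the fit of all 16 Tcon libraries), but not on the scale of CD4 T cell identity genes (0.05, adjusted p = 0.771, beside a median of 0.58). Bcl6, the factor that directs Tfh cells and is repressed by STAT5, was at 39.1 and 32.8 CPM in isotype PBS, 23.4 and 22.2 in isotype 3x, 48.6 and 45.2 in block PBS, and 28.9 and 27.1 in block 3x. All libraries of 3x were below those of PBS, by like amounts in the arms (-0.73, SE 0.07, adjusted p = 0.0033; interaction -0.16, adjusted p = 0.342), with an interaction of 0.42 (adjusted p = 0.0131) beside that median of 0.58 on the scale of CD4 T cell identity genes. Cxcr5 and Bcl6 are also B cell genes, and the part of B cells in their falls was not tested. The 150 bases before the start of Bcl6 that holds most matches, of 2 starts listed, are given because 2 matches to TTCNNNGAA, the letters of a STAT element, lie there, 122 and 88 bases before the start (chr16:23981284-23981433, minus strand, GRCm38.p6, matches in capitals).
Bcl6: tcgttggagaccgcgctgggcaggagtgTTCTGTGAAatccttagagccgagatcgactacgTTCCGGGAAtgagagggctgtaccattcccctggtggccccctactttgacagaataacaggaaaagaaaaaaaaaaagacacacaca
Of the 16 STAT5 feedback and target genes with a promoter entry, 4 held this pattern (25.0%), against 4.77% of all 27025 genes, and the search covered both strands. Of 14 Tfh genes, 7 fell and 1 rose (Il4), with a median of -0.66, but without 1 library 3 to 7 fell and none rose. Cd200 (-1.04), Slamf6 (-0.58), Pdcd1 (-0.84), Tox2 (-1.46) and Ascl2 (-1.74) were the others that fell. Of these, Pdcd1 and Tox2 did not pass without any 1 of 6 of the 8 libraries (adjusted p of up to 0.196 and 0.18), Slamf6 without either MHC II block PBS or either MHC II block 3x library (up to 0.137), and Ascl2 in 3 of the 4 such settings in which it was tested (up to 0.195). Ascl2 was above 0.5 CPM in 4 libraries, 3 of them PBS. The list differed between the arms: 13 of its 14 genes fell with MHC II block (median -0.97) and 4 in isotype mice, where 4 rose (median -0.10), beside 24.1% of all genes that fell with MHC II block and 18.4% and 12.8% that fell and rose in isotype mice. Without 1 library, 1 to 6 rose and 3 to 7 fell in isotype mice, with medians of -0.30 without isotype PBS replicate 2 to 0.30 without isotype PBS replicate 1, so that the list has no set direction there. Il21, the cytokine of Tfh cells, was at 48.4 and 37.9 CPM in block PBS and 11.8 and 13.1 in block 3x, whereas the isotype groups overlapped at 11.1 and 5.83 with PBS and 12.5 and 4.84 with 3x. The interaction was -1.88 for Il21 (adjusted p = 0.0174, but 0.3 in the fit of all 16 Tcon libraries).

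Part of the interferon-stimulated genes fell. Ifit1, an RNA-binding antiviral protein, was at 18.8 and 16.8 CPM in isotype PBS, 13.8 and 12.7 in isotype 3x, 138 and 128 in block PBS, and 42.8 and 43.4 in block 3x. The block PBS libraries stood far above the rest. It fell in both arms together (-1.11, SE 0.24, adjusted p = 0.0365), by 0.42 on the log2 scale in isotype mice and by 1.70 with MHC II block, and did not pass without MHC II block PBS replicate 2 or either MHC II block 3x library (adjusted p of 0.103, 0.113 and 0.115). The chemokine Cxcl10 fell by 1.31 and the ubiquitin-like Isg15 by 0.67, both in each arm. Of 20 interferon-stimulated genes, 8 fell and 1 rose (Oas1a), with a median of -0.08, and without 1 library 2 to 7 fell. Irf7 (0.05), Usp18 (0.02) and Bst2 (-0.07), further genes of this response, did not pass. The 150 bases before the start of Ifit1 (chr19:34640739-34640888, plus strand, GRCm38.p6) are given for their pair of interferon response letters, TTTC followed by TTTC after 2 further bases, in capitals, 104 and 85 bases before the start.
Ifit1: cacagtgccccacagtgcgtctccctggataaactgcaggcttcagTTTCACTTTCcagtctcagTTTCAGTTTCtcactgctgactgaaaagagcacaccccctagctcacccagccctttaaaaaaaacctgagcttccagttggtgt
This pattern, on either strand, was in 6 of the 15 interferon-stimulated genes with a promoter entry (40.0%) and in 1.85% of all 27025 genes. None of the patterns searched contains another.

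Cytokine genes moved in both directions. Tnf was at 39.2 and 42.7 CPM in isotype PBS, 25.0 and 32.5 in isotype 3x, 121 and 103 in block PBS, and 56.7 and 64.8 in block 3x, lower with 3x in each arm (-0.73, SE 0.13, adjusted p = 0.0179). Tnfsf11 (RANKL) fell by 0.92, Lta by 0.57 and Il2, at 1.80 CPM or less in every library, by 0.99. Of the 17 helper cytokines tested, 5 fell and 4 rose (Il4, Il13, Csf2 and Tgfb1), but without 1 library 2 to 5 fell and at most 2 rose, Csf2 and Tgfb1 being lost without any 1 of 6 and of 5 libraries (adjusted p of up to 0.164 and 0.146). Among those rises, Il13 had passed the filter through the 3x libraries alone, so its call supports nothing. Of 9 Th17 genes tested, the receptors Il23r (-1.37) and Il1r1 (-1.08) fell and none rose. Il23r passed the filter through the PBS libraries alone, with all 3x libraries below 0.5 CPM, so its call supports nothing, and Il17a did not pass the test. Several of the largest falls were of genes outside the lists. Ttn, the giant protein of muscle sarcomeres, fell from 15.8 to 26.1 CPM to 4.94 to 6.67 CPM (-1.84, SE 0.11, adjusted p = 0.000533), and Fam43a fell by 1.38, Apol8 by 1.83, Igfbp5 by 1.77, Padi4 by 2.33 and Rgs16 by 1.61. Cdh23, Cacna1d and Nrn1 fell by 1.59, 1.45 and 1.41, but in isotype mice their changes of -0.72, -0.48 and -0.44 did not pass. Mmp9 and F2rl2, a protease and a thrombin receptor cofactor, rose by 1.27 and 1.13.

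Metabolic lists moved little in both arms together. Over all genes tested 5.32% rose and 9.85% fell, and several counts below, such as the rises of sterol and ATF4 genes, were near those shares. Among 16 glycolysis genes 3 rose (Eno1, Ldha and the glucose transporter Slc2a3, by 0.25, 0.11 and 0.35) and 1 fell (Slc2a1, by 0.20), and among 22 sterol and fatty acid genes 1 rose and 4 fell. Odc1, the first enzyme of polyamine synthesis, fell by 0.69 and was the only one of 20 Myc and ribosome biogenesis genes to pass in both arms together, whereas 11 of them fell in isotype mice (3 to 11 without 1 library) and 12 rose with MHC II block (7 to 13), with 15 interactions higher. In the Bcl2 family, Bcl2, Bcl2l11 and Bik rose, by 0.34, 0.28 and 0.81, and the others of 16 did not pass. Of 23 cytokine receptors, 7 rose and 3 fell, the falls being Il6st (-0.40), Il9r (-0.51) and Tgfbr1 (-0.21), with 4 to 7 rises and 1 to 3 falls without 1 library, and 2 of 8 Gimap genes, GTPases of lymphocyte survival, rose. Amino acid and ATF4 genes (15 tested) included 1 rise and 3 falls, and 10 had a higher effect with MHC II block. Across the results over both arms, 35 of the 100 genes named that passed no longer did so without at least 1 of the 8 libraries. Of those not yet given, Gpr83, Ldha and Il6st were lost without any 1 of 7 libraries, Prss34, Cdh23, Prf1, Fos, Oas1a and Il2 of 6, Epx, Rgs16, Cacna1d, Nrn1 and Ccr3 of 5, and Mcpt8, Nfatc1 and Tnfsf11 of 4, with adjusted p of up to 0.273. Tgfbr1 was lost without any 1 of 3 libraries, Mcpt1, Jun and Slc2a1 of 2, and Pim1, Capg and Il23r without 1, with adjusted p of up to 0.144.

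Many lists differed between the arms, among them those of dividing cells, of mitochondria, of resting T cells and of the other cell types. All 20 G2/M genes had a larger 3x effect with MHC II block than with isotype (median interaction 1.14): 16 fell in isotype mice (median -0.47) and 18 rose with MHC II block (median 0.70), and none passed in both arms together. The isotype falls depended on single libraries, with 3 without isotype PBS replicate 1 or isotype 3x replicate 2, 20 without isotype 3x replicate 1, and medians of -0.74 to -0.18 without 1 library. Top2a, a topoisomerase of dividing cells, was at 120 and 104 CPM in isotype PBS, 110 and 71.0 in isotype 3x, 130 and 123 in block PBS, and 201 and 189 in block 3x. The block 3x libraries were the highest, and the isotype groups overlapped. S phase genes showed the same order, with 15 of 20 lower in isotype mice (median -0.30) and 16 higher with MHC II block (median 0.38), but 7 lower in isotype mice without isotype 3x replicate 2 (median -0.17). Of the 22 oxidative phosphorylation genes, 21 rose with MHC II block (median 0.27) and 1 in isotype mice (median -0.05). MHC class II, myeloid, neutrophil and erythroid genes rose with MHC II block in the same libraries, in 9 of 9, 10 of 11, 9 of 9 and 10 of 10 genes tested. Among the neutrophil genes, S100a9 was at 1.64 and 0.266 CPM in block PBS and 30.2 and 21.5 in block 3x. Gzma, a granzyme of NK and cytotoxic cells, was at 25.8 and 9.68 CPM in isotype PBS and 30.4 and 18.7 in isotype 3x, which overlapped, and at 1.45 and 2.01 in block PBS and 184 and 170 in block 3x. The part of these cells in the division and mitochondrial genes was not tested.

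**Figure D4:**
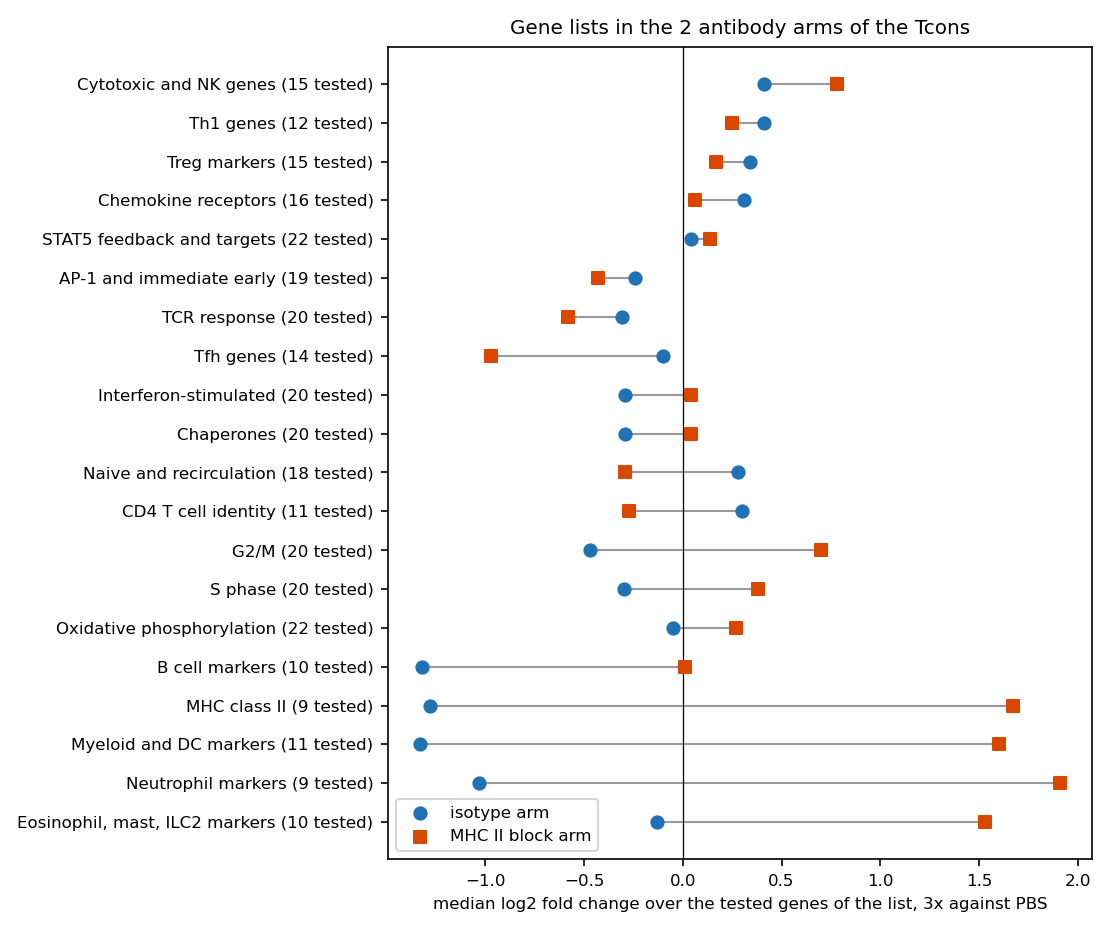
Median log2 fold change of 3x against PBS over the tested genes of each list, in isotype mice and in MHC II block mice. G2/M genes had medians of -0.47 and 0.70 and MHC class II genes of -1.28 and 1.67, while TCR response genes were below 0 and cytotoxic genes above 0 in both arms.

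T cell genes moved the other way. All 11 CD4 T cell identity genes tested rose in isotype mice (median 0.30) and 10 of them fell with MHC II block (median -0.27), as for Cd4 itself, at 667 and 612 CPM in isotype PBS, 693 and 736 in isotype 3x, 922 and 896 in block PBS, and 645 and 636 in block 3x. Of 18 genes of naive and recirculating T cells, 13 rose in isotype mice and 11 fell with MHC II block, among them the survival receptor Il7r (0.51 and -0.48) and the lymph node homing receptor Ccr7 (0.28 and -0.52). When counts were scaled to the CD4 T cell identity genes, the median of all genes shifted by -0.31 in isotype mice and by 0.29 with MHC II block. On that scale the medians of the naive genes were -0.01 in each arm. On that scale 76.6% of all genes fell in isotype mice and 64.5% rose with MHC II block, so that counts follow the shift, and lists are given by their medians. The TCR response list had medians of -0.60 in isotype mice and -0.29 with MHC II block, and the G2/M list of -0.76 and 0.99. Among activation and costimulation genes, 15 of 20 fell with MHC II block (12 on that scale, where 6.27% of all genes fell), with the costimulatory receptor Cd28 at 473 and 430 CPM in block PBS and 232 and 244 in block 3x, whereas it was between 422 and 446 CPM in the isotype libraries.

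The molecules were compared directly in a fit of all 16 Tcon libraries, each IL-2 at 25 µg and day 4. Against WT IL-2, 3x gave higher levels of 568 genes (4.53%) and lower levels of 608 (4.85%) of 12529, and against H16R, 41 (0.327%) and 133 (1.06%), 174 genes (1.39%) in all. The first count was 426 in place of 1176 without isotype 3x replicate 2 and 1992 without isotype WT IL-2 replicate 2, and the second was 18 or 19 in place of 174 without any 1 of the isotype 3x or isotype H16R libraries. None of the 7 genes of the receptor and its JAK-STAT5 chain passed against WT IL-2 or H16R, while of 23 cytokine receptors 5 were higher and 4 lower than with WT IL-2, and of 12 Th1 genes 4 were lower than with WT IL-2 and 3 than with H16R. Il2ra was at 49.7 and 64.5 CPM with isotype and 33.2 and 37.5 with MHC II block under WT IL-2. The difference of 0.06, taken over both arms, had a 95% interval of -0.22 to 0.35 on the log2 scale. The intervals were -0.62 to 0.39 for Klrg1, -0.22 to 0.35 for Cxcr6, -0.42 to 0.24 for Bcl6 and -0.60 to 0.10 for Cxcr5, while Socs2 was lower with 3x by 0.37 (adjusted p = 0.0862). Against H16R, Il2ra differed by -0.35 with an interval of -0.63 to -0.07 and an adjusted p of 0.242, and Cxcr6 was lower with 3x (-0.54, adjusted p = 0.0913). The calls of Socs2 and Cxcr6 were each lost without any 1 of 11 libraries, with adjusted p of up to 0.195 and 0.275. Intervals are for single genes and are not adjusted over genes. Isotype WT IL-2 replicate 2 stood apart in its summed Treg markers, at 2192 CPM against 595 to 1177 in the other Tcon libraries. Its summed Tfh genes were at 1638 CPM, against 569 to 1207 in the others. The part of this library in the fit of all 16 Tcon libraries was not tested.

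A part of the immediate early genes was lower with 3x than with WT IL-2. Fosb was at 1298 and 1575 CPM with isotype and 1374 and 1439 with MHC II block under WT IL-2, and at 922 and 1087, and 1149 and 1006, under H16R. Every library of 3x, at 820 CPM or less, lay below these (-0.94 against WT IL-2, adjusted p = 0.00031, and -0.47 against H16R, adjusted p = 0.0469, SE 0.09 each). The difference from H16R did not pass without isotype H16R replicate 2 or either isotype 3x library (adjusted p of 0.143, 0.166 and 0.102). Egr1 and Nfkbia were lower with 3x than with WT IL-2 by 0.76 and 0.85 on the log2 scale (-0.76 and -0.85), but their differences from H16R, -0.39 and -0.31, did not pass. Of the 19 AP-1 genes, 9 were lower with 3x than with WT IL-2 and 1 than with H16R, and of the 20 chaperones, 12 and 4. In the other direction, Igfbp4, an IGF-binding protein of naive CD4 T cells, was at 286 to 421 CPM with PBS, 225 to 352 with WT IL-2, 311 to 380 with H16R and 483 to 573 with 3x. It was the highest with 3x without overlap, by 0.95 over WT IL-2 (SE 0.09, adjusted p = 0.00031) and by 0.62 over H16R (SE 0.09, adjusted p = 0.0142). Bcl2 was higher with 3x than with WT IL-2 by 0.83 (adjusted p = 0.00212) and than with H16R by 0.46 (adjusted p = 0.0981), Als2cl by 0.74 and 0.47, and Il4ra by 0.81 over WT IL-2. Tspan9 (1.33), Tmie (0.86), Pdlim4 (0.84) and Gm45234 (0.83) were the other large rises over WT IL-2, and B430306N03Rik (0.58) and Snx29 (0.41) over H16R. Of the 12 genes named here or below for a difference from H16R, Igfbp4 alone passed without each of the 16 libraries in turn. Of 18 naive genes, 7 were higher with 3x than with WT IL-2 and none lower.

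Plasma cell and red cell transcripts also differed between the molecules. Of the 8 plasma cell genes tested, 7 were lower with 3x than with WT IL-2 and 6 than with H16R, as for Sdc1 (-1.70 and -1.46), and Fkbp11 (-1.80), Eaf2 (-1.71), Cacna1h (-1.47) and Derl3 (-1.44) were, with Sdc1, the largest differences from H16R. Against PBS in the same fit, 7 of these 8 plasma cell genes rose with WT IL-2 (median 1.24) and 7 with H16R (median 0.92). With 3x none rose and 1 fell (median -0.26). The hemoglobin genes Hbb-bs, Hbb-bt and Hba-a1 and the red cell transporter Slc4a1 were lower with 3x than with WT IL-2. They rested on isotype WT IL-2 replicate 1 and MHC II block WT IL-2 replicate 1: Slc4a1 was at 65.8 and 35.9 CPM there, and at 4.63 and 4.91 CPM in the other replicate of each group. Slpi, a secreted protease inhibitor of myeloid cells, was lower with 3x by 2.24 on the log2 scale (-2.24).

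**Figure D5:**
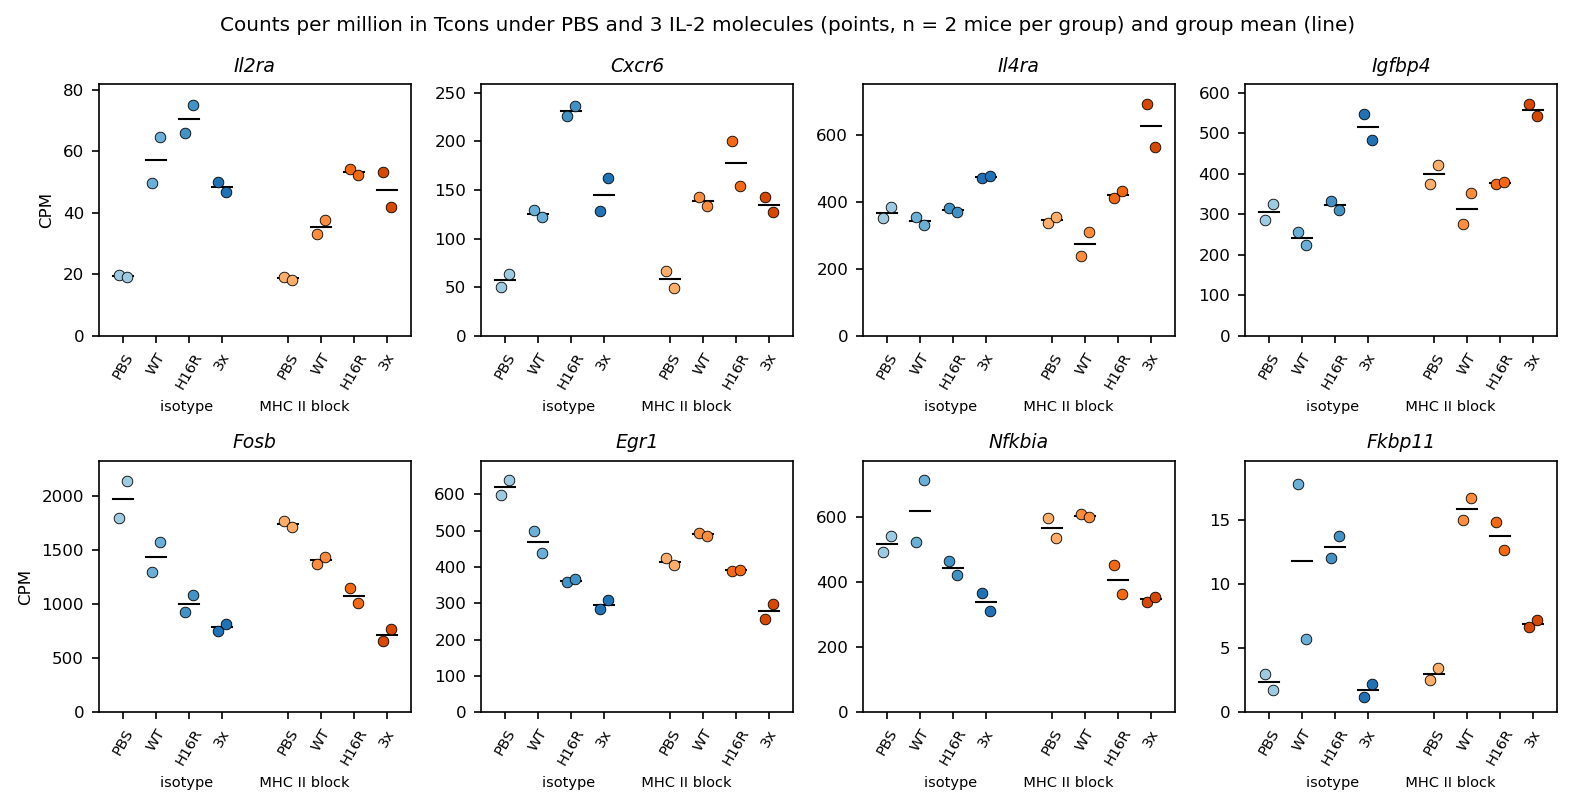
CPM in each of the 16 Tcon libraries (points) under PBS, WT IL-2, H16R and 3x, by antibody, with the group mean as a line and n = 2 mice per group. Fosb was lowest and Igfbp4 highest in the libraries of 3x, whereas Il2ra was above every PBS library with each molecule.

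The same 8 mice also gave Treg libraries, which allowed the 3x effect to be compared between the cell types with the mouse as a block. It differed for 6621 of 12545 genes (52.8%), of which 3403 (27.1%) had the higher effect in Tcons and 3218 (25.7%) in Tregs. Il2ra was at 348 to 393 CPM in Tregs with PBS and 547 to 846 CPM with 3x, and its rise was larger in Tcons by 0.38 (SE 0.09, adjusted p = 0.0056), from a far lower level. Lrrc32 also rose more in Tcons (0.80, SE 0.09, adjusted p = 0.000163), while Klrg1 (-0.15), Cxcr6 (0.22), Foxp3 (0.16) and Fosb (0.07) did not pass the test of a difference. Socs2 (-0.61), Ccr2 (-1.45) and Il1rl1 (-1.53) rose less in Tcons than in Tregs. The largest difference was for Gzmb, granzyme B, at 8.43 to 10.7 CPM in Tregs with PBS and 168 to 829 CPM with 3x, with an effect in Tcons lower by 4.16 on the log2 scale (-4.16, SE 0.19, adjusted p = 4e-06). In Tregs themselves 3x changed 59.7% of the genes tested, with 29% higher and 30.7% lower. These and the other calls within Tregs came from a fit without the mouse as a block. All 20 G2/M genes rose in Tregs (median 1.31) and had a lower effect in Tcons (median -1.15), as for Mki67, at 137 to 191 CPM in Tregs with PBS and 323 to 511 with 3x. In contrast, 18 of 20 Myc and ribosome biogenesis genes had the higher effect in Tcons, and 18 fell in Tregs. Of 11 Th2 genes, 9 had a lower effect in Tcons.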

How the data were processed

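RNA-seq was made from CD25- and CD25+ spleen CD4 T cells, and the replicates were individual mice whose cells were prepared separately. The authors aligned reads with OSA in Omicsoft Array Suite to the mouse B38 genome with a GENCODE gene model, and quantified genes with the Omicsoft implementation of RSEM. The submitters' processing notes name RSEM and DESeq2 1.30.1. The values used were the expected counts that the authors deposited, which were rounded here to whole numbers, and the FPKM values that the authors deposited, used in an alternative. Deposited tables of the authors' own comparisons in Tregs, with log2 fold changes, test statistics and p-values, were not used.

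Protein-coding genes without an empty cell and with a CPM above 0.5 in at least 4 fitted libraries were tested with edgeR 4.0.16's quasi-likelihood test (R 4.3.3, TMM scaling, two-sided), with Benjamini-Hochberg adjustment and a threshold of 0.1. Standard errors were derived from the F statistic. Within-arm values and the interaction came from 1 fit of 4 group means, comparisons between molecules from all 16 Tcon libraries, and the comparison with Tregs from 16 libraries with the mouse as a block. Calls within Tregs came from the latter 16 libraries without that block. The text names the 15 largest rises and falls that passed with a mean of at least 5 CPM and the same sign in both arms, the 5 largest in each direction for the other comparisons, and list members. The members and lists were chosen with earlier results of these data known. The code was tested on simulated data. Alternatives used DESeq2 1.42.0, limma 3.58.1 on log2(FPKM + 1) and log2(FPKM + 0.1), other scalings, filters, gene sets and models, and each library left out. Gene positions came from a GENCODE annotation of GRCm38, promoters from RefSeq, and figures were drawn with matplotlib 3.10.9. A depth of 31311437 counts or more per library bounds only counting error, and 2 mice per group limit precision further.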

Additional observations from a re-analysis of the deposited data

Results flagged for a closer look

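The effect of 3x in Tcons differed between the antibody arms for 4978 genes, by the interaction of drug and antibody in edgeR's quasi-likelihood test, and the values below are that difference on the log2 scale, MHC II block minus isotype, for the genes named. The largest positive differences were of genes of other blood cells: Gzma 6.14 (SE 0.59, adjusted p = 6.44e-05), S100a8 5.95, S100a9 5.76, Ngp 5.21 and Il1b 4.93. S100a8, a neutrophil gene, was at 0.765 and 0.363 CPM in block PBS and 18.7 and 17.3 CPM in block 3x, against 7.56 and 8.16 in isotype PBS and 3.07 and 4.64 in isotype 3x. The largest negative differences were Synpo -1.99 (SE 0.15, adjusted p = 1.48e-05), Gpm6b -1.98, Cacna1d -1.92, Nrn1 -1.91 and Il21 -1.88. Synpo, an actin-associated protein, was highest in block PBS, at 74.5 and 68.2 CPM, and between 15.3 and 22.2 CPM in the other groups. Among genes that moved the same way in both arms, the size of the effect differed for Klrg1 (0.86), Il4ra (0.41), Lrrc32 (-0.79) and Cxcr5 (-0.53). Without 1 library the differences of these 14 genes kept their signs, but ranged from -2.42 to -1.07 for Il21 and from 0.26 to 0.55 for Il4ra. In the fit of all 16 Tcon libraries with 8 group means, Cacna1d, Il21, Il4ra, Klrg1, Lrrc32 and Cxcr5 did not pass (adjusted p of 0.105, 0.3, 0.14, 0.155, 0.2 and 0.197).

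The effect of 3x also differed between Tcons and Tregs of the same mice, for 6621 genes by the interaction of drug and cell type, given here as Tcon minus Treg. The largest positive differences were S100a9 3.51 (SE 1.03, adjusted p = 0.0209), Elane 3.05, Prg2 2.98, Prtn3 2.92 and Fcer2a 2.60. In Tregs with PBS, S100a9 was at 19.2 CPM in isotype PBS replicate 1 and at 2.92 CPM or less in the other 3 mice, and Fcer2a at 55.0 CPM in that replicate and 2.83 CPM or less in the others. Elane no longer passed without MHC II block PBS replicate 1 (1.85, adjusted p = 0.261), nor Fcer2a without isotype 3x replicate 2 (1.96, adjusted p = 0.173), and Fcer2a was at 1.20 without isotype PBS replicate 1 (adjusted p = 0.0144). The largest negative differences were Gzmb -4.16 (SE 0.19, adjusted p = 4e-06), Gcg -4.08, Amotl1 -4.03, Nos1 -3.58 and Ifitm1 -3.40. Among the IL-2 response genes, the effect in Tcons was larger for Il2ra (0.38) and Lrrc32 (0.80) and smaller for Socs2 (-0.61), Ccr2 (-1.45) and Il1rl1 (-1.53). Markers of neutrophils and other cells moved with these differences in the MHC II block 3x libraries, and their part in them was not tested.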

How the results depend on the processing

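The 1855 genes changed by 3x became 3810 in isotype mice alone, 5779 in MHC II block mice alone, 3009 (of 14428 tested) with genes of every biotype and 180 when a log2 change of 1 or more in size was also required. Alternatives chosen after seeing the data gave 4693 genes with 4 group means and 346 (49 higher and 297 lower) with counts scaled to CD4 T cell identity genes. The split was 1022 higher and 948 lower with limma on log2(FPKM + 1), 1038 and 975 with log2(FPKM + 0.1), and 590 and 648 with all 16 Tcon libraries additive. The interaction went from 4978 to 2288 genes with all 16 libraries, 10363 with CD4 scaling (10290 higher) and 1110 with the fold threshold. Isotype mice alone went from 3810 to 9492 with CD4 scaling (9366 lower) and 604 with the fold threshold, and MHC II block mice from 5779 to 699 with the fold threshold, while 3984 of 6185 were higher with library totals alone and 7892 of 8659 with CD4 scaling. Genes called in both arms went from 1042 to 74 in the same direction with the fold threshold, and from 1236 to 228 in opposite directions, or 6159 with CD4 scaling. Against WT IL-2, 1176 genes became 1789 with DESeq2, 2810 with 8 group means and 154 with the fold threshold, and 1034 of 1591 were higher with library totals alone. Against H16R, 174 became 111 without the CPM filter, 745 with DESeq2, 1167 with 8 group means and 32 with the fold threshold, and 101 of 239 were higher with library totals alone. The difference between Tcons and Tregs went from 6621 to 1113 genes with the fold threshold. The cause of these changes was not tested.

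Without 1 library at a time the counts ranged from 681 to 1712 for 3x against PBS, 3698 to 4746 for the interaction, 2625 to 3645 in isotype mice and 3738 to 6064 in MHC II block mice, the lowest of these without MHC II block PBS replicate 1 except in isotype mice. The ranges were 652 to 1031 for both arms in the same direction and 851 to 1218 in opposite directions. They were 426 to 1992 against WT IL-2 and 18 to 479 against H16R, the highest of each without isotype WT IL-2 replicate 2. Against WT IL-2 the count was 476 without isotype 3x replicate 1 and 511 without MHC II block WT IL-2 replicate 1. Against H16R it was 94 without isotype PBS replicate 2 and 97 without MHC II block WT IL-2 replicate 2. Without 1 mouse, 5363 to 6725 genes differed between Tcons and Tregs. Of 100 genes named for 3x against PBS that passed, 65 passed without each library in turn, as did 12 of 18 against WT IL-2 and 1 of 12 against H16R.

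Replicate numbers did not pair the mice: deviations of same-numbered libraries correlated at -0.14 to 0.14 over 6 pairs of groups. The replicate block gave 1278 genes (427 higher and 851 lower), 5047 for the interaction, 985 against WT IL-2 and 126 against H16R, and the comparison with Tregs without the mouse as a replicate block gave 4911.

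Direction depended on the arm for genes with opposite signs there. Jak1 (-0.20), Stat5b (-0.11), Ifng (-0.24) and Bst2 (0.32) passed in the test of MHC II block mice (Ifng not without MHC II block PBS replicate 1, -0.14), and Gata3 (0.23), Myc (-0.33), Icos (0.36) and Usp18 (-0.31) in that of isotype mice, each against the sign over both arms, where none passed. With CD4 scaling, Ccr7 was at -0.02 in isotype mice, Ifng at 0.05 with MHC II block, and the interactions at 0.53 for Il2ra, 0.05 for Cxcr5 and 0.42 for Bcl6, which reversed their signs. No other named gene that passed changed its sign under the alternatives run, those without 1 library included. Of the 100 that passed for 3x against PBS, 45 no longer passed with CD4 scaling, 60 with the fold threshold, 20 with all 16 Tcon libraries additive and 18 with the replicate block. With all 16 libraries additive, falls went from 13 to 9 in the TCR response list, 8 to 3 in the interferon list and 7 to 4 in the Tfh list, and receptor and JAK-STAT5 rises from 2 to 1.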
